A study of Mus musculus with 2 samples.

Results

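The proton pump and the degradative content of the lysosome were followed through 38 genes, found in the count matrices by their symbols. They comprised 16 genes of the vacuolar proton pump (V-ATPase), 11 genes of lysosomal hydrolases other than cathepsins, and 11 genes of other lysosomal proteins, out of 33696 gene rows in the count matrices. Each of the 38 had UMIs (unique molecular identifiers, 1 per captured mRNA) in both libraries. The 2 scRNA-seq libraries held live CD45+ cells sorted from the thalamus of the injured hemisphere of mice (strain C57B6/J in the labels and C57BL/6J in the methods), 21 days after cortical ablation injury (CAI), in which sensory and motor cortex is removed surgically. The control Ab-injected group received normal rat IgG and the anti-CD9 Ab group received clone KMC8, which binds the tetraspanin CD9. Either antibody was given into the thalamus through a cannula from day 7 to day 19, in 0.5 μl at 1.0 μg/μl, so that every mouse carried the injury, the cannula and an injected antibody. According to the methods, cells of 4 mice were pooled for the thalamus, a number that is not repeated for the antibody groups. The reporting summary gives an age of 12 weeks for the mice of the study.

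Each antibody had 1 library, which allows no test. Intervals are 95% and cover counting error only, and an effect of the antibody cannot be told apart from a difference between the mice or between the libraries. The quality limits kept 7467 cells of the control library (median 1880 UMIs) and 9162 of the other (median 1419 UMIs), and 54 barcodes occurred in both libraries. Classes were named from markers. Microglia-like cells (2327 after control Ab and 1085 after anti-CD9 Ab) came from 4 clusters with 9 to 15 of 15 microglia markers raised. Macrophage-like cells (236 and 2457) came from 2 clusters with 8 and 11 of 16 macrophage or monocyte markers raised, and neutrophil-like cells (63 and 2597) from 2 clusters with 17 and 18 of 18. Lymphocyte-like cells (3255 and 1260) joined T, NK and B cell-like clusters. Astrocyte-like, oligodendrocyte-like and neuron-like clusters were present as well in spite of the CD45+ sort, and only their pump against hydrolases is described. The 38 genes were left out of the clustering. Levels are UMIs divided by those of the class and scaled to counts per 1000000 (CPM) in 3′ libraries, in which each mRNA gives 1 tag whatever its length. A gene was called lower or higher after anti-CD9 Ab where its CPM differed at least 1.5-fold, provided the 2 libraries together held at least 50 of its UMIs in the class. Of paired values the first belongs to control Ab and the second to anti-CD9 Ab, and each log2 ratio is that of the second over the first, with its interval in parentheses.

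As background, the V-ATPase is a rotary enzyme that pumps protons into endosomes and lysosomes. Its cytosolic V1 sector splits ATP and turns the rotor of the V0 sector in the membrane, through which the protons pass. The acid interior activates hydrolases that take apart engulfed proteins, lipids and glycans, and microglia and macrophages are known for a large lysosomal compartment. TFEB, a transcription factor held at the lysosome surface when nutrients are plentiful, binds the sequence CACGTG with preferred flanking bases in the promoters of many of these genes.

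The promoters were read for that sequence in the RefSeq table of GRCm38.p6, from 250 bases before to 50 bases after each gene's start. The table held 31 of the 38 genes. It did not list Atp6v0d2, Atp6v1b2, Atp6v1c1, Atp6v1g1, Atp6v1h, Asah1 and Npc1. CACGTG, which reads the same on both strands, stood in 10 of the 31 (32.3%), against 8.09% of the 27025 genes of the table and 7.15% of its 32851 promoters. Each of the 10 held the longer form TCACGTG or CACGTGA, on either strand and overlapping the core, which 4.29% of all genes held. Of the promoters read, 4 of 11 pump genes, 4 of 10 hydrolases and 2 of 10 other genes had it. In Atp6v0d1 and Atp6v0e it lay after the start, and the other 8 are shown here. Atp6v0b, Atp6v1a, Gaa, Glb1, Lgmn and Naglu place the motif in both arms of the comparison of pump and hydrolases. Lamp1 and Mcoln1 lie outside that comparison. Sequences run 5′ to 3′ on the strand of the gene, with CACGTG in capitals. The windows are chr4:117887330-117887385 (minus strand) for Atp6v0b, chr16:44139365-44139410 (minus) for Atp6v1a, chr11:119267803-119267848 (plus) for Gaa, chr9:114401010-114401055 (plus) for Glb1, chr12:102439116-102439161 (minus) for Lgmn, chr11:101070001-101070046 (plus) for Naglu, chr8:13159080-13159160 (plus) for Lamp1 and chr8:3500428-3500499 (plus) for Mcoln1.
Atp6v0b: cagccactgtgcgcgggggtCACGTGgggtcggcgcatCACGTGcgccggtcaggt
Atp6v1a: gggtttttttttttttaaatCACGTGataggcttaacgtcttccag
Gaa: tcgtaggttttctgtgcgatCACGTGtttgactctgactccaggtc
Glb1: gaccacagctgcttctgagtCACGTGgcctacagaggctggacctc
Lgmn: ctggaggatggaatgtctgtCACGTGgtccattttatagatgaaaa
Naglu: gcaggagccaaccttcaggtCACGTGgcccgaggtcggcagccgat
Lamp1: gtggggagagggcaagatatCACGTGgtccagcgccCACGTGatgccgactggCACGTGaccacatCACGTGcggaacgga
Mcoln1: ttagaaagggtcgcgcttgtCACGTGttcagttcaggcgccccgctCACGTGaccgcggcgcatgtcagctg
Lamp1 held 4 copies, whose first letters lay 61, 45, 28 and 15 bases before the start, Atp6v0b and Mcoln1 held 2 each, and the other 5 held 1.

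Microglia, the resident macrophages of the brain, were compared first. In microglia-like cells the 38 genes made up 1.52% of the UMIs after control Ab and 1.35% after anti-CD9 Ab (log2 ratio −0.17, −0.18 to −0.15). Of the 38, 27 had a lower CPM after anti-CD9 Ab and 11 a higher one. The median log2 ratio of the members was −0.16, with medians of −0.29 and 0.00 for the lower and upper bounds of their intervals, beside 0.03 over all 11345 genes, of which 46.5% were lower. Called lower were 4 members, Atp6v0d2, Cd68, Naglu and Hexa, and called higher were 0. Of all genes, 9.72% were called lower and 9.47% higher, so that the share of members called lower was close to the background. The plot of levels shows most members near the line of equal levels in this class.

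**Figure D1:**
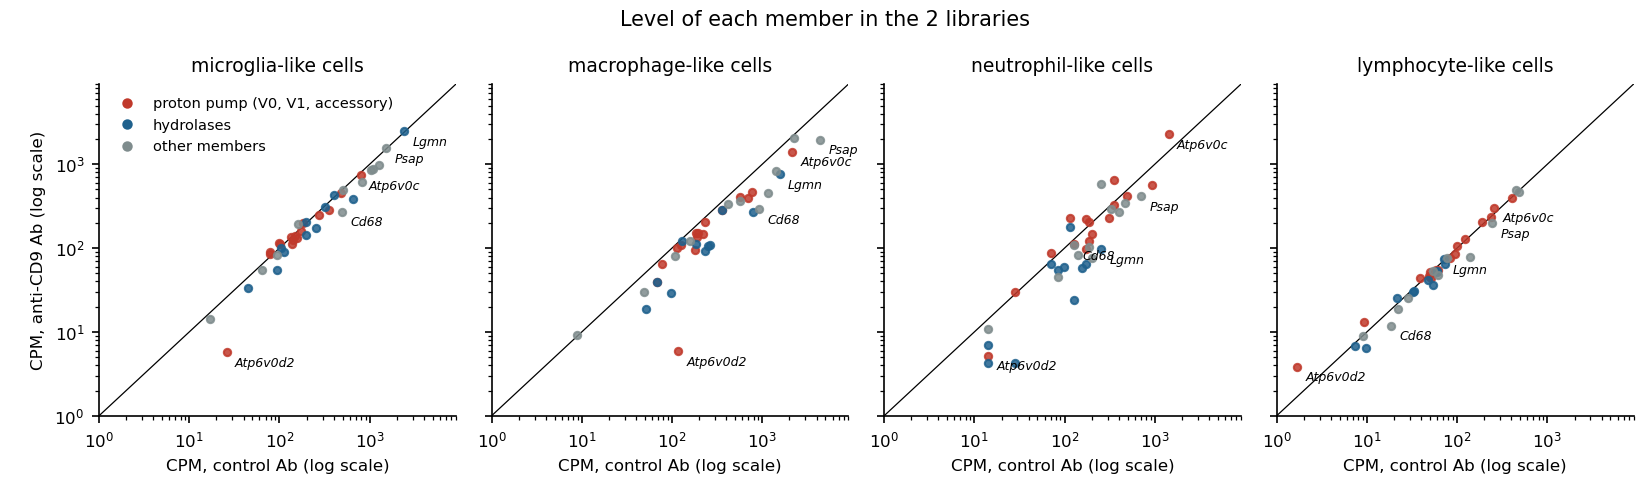
CPM of each of the 38 members after control Ab (horizontal axis, log scale) and anti-CD9 Ab (vertical axis, log scale), 1 point per gene, in 4 cell classes. The line marks equal levels, colours mark proton pump, hydrolases and other members, and Atp6v0d2 lies far under the line in microglia-like and macrophage-like cells.

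Within the pump of microglia-like cells, Atp6v0d2 stood apart. It codes for the V0 d2 subunit, the counterpart of the widely expressed d1 subunit, and is known from osteoclasts and macrophages. It had 296 UMIs after control Ab (26.1 CPM, 23.2 to 29.2) and 19 after anti-CD9 Ab (5.69 CPM, 3.43 to 8.89), which is 4.58-fold lower (log2 ratio −2.19, −2.95 to −1.53). Atp6v0d1 was at 97.6 and 114 CPM in the same cells (0.22, 0.05 to 0.39), so that the intervals of the d1 and d2 ratios did not overlap. Among cells thinned to 1000 UMIs, 1.66% (1.15 to 2.32%) had an Atp6v0d2 UMI after control Ab and 0.33% (0.07 to 0.95%) after anti-CD9 Ab, and 6.02% and 1.29% without thinning. UMIs of free RNA can give such a share in cells that do not express a gene. The shares in thinned T cell-like cells, which should lack this gene, were 0.04% (0.00 to 0.22%) and 0.11% (0.00 to 0.60%), so that the anti-CD9 Ab value lay within the range of the background. Before thinning, the median cell had 2664 and 2835 UMIs in the microglia-like class and 1555 and 2288 in the T cell-like class, and thinning left out 282 and 167 microglia-like cells. Most of its UMIs lay in cluster 2 (led by Spp1 and Lpl, with 979 and 400 cells), which held 267 of 296 and 12 of 19 of them and where it was at 39.6 CPM after control Ab and 8.11 after anti-CD9 Ab. In cluster 4 (led by Siglech and P2ry12, with 909 and 419 cells) it was at 5.08 and 3.55 CPM. The make-up of these clusters depended on the integration of the libraries. Without it, a cluster led by Lpl and Spp1 held 1037 and 114 cells, and one led by Siglech and P2ry12 held 953 and 78. Another, led by Ccl12 and Cxcl13, held 96 and 620 cells. Its part in the values by cluster was not tested.

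The other 15 pump genes of microglia-like cells differed by less than 1.5-fold. The V0 sector summed to 1906 CPM after control Ab and 1730 after anti-CD9 Ab, of which Atp6v0c, the proteolipid of the rotor ring, gave 794 and 736 (−0.11, −0.17 to −0.05). The V1 sector summed to 1118 and 1069 CPM, with Atp6v1g1, a stalk subunit, at 276 and 248. The accessory proteins summed to 341 and 332 CPM, with Atp6ap2, the prorenin receptor, at 184 and 201. Atp6v1d, part of the central stalk, was at 78.5 and 90.2 CPM (0.20, 0.01 to 0.39), 1 of the 3 highest ratios of the 38. The pump as a whole was at 3366 and 3131 CPM (−0.10, −0.14 to −0.07).

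Among the hydrolases, Hexa and Naglu were called lower. Hexa codes for the alpha subunit of β-hexosaminidase, which trims gangliosides, and was at 650 CPM (635 to 665) and 386 (365 to 407), a log2 ratio of −0.75 (−0.84 to −0.67). Naglu, which removes N-acetylglucosamine from heparan sulfate, was at 92.8 and 54.8 CPM (−0.76, −0.99 to −0.53). Hexa was lower in each of the 4 microglia-like clusters, at −0.50 to −1.14. Naglu was lower in the 3 clusters where it had at least 50 UMIs, at −0.59 to −0.84, although the interval of the last reached 0.06. Gusb (β-glucuronidase) was next at 254 and 173 CPM (−0.56), just short of the call, and it passed it under 1 of 5 other settings (no integration, a mitochondrial limit of 5%, 20 principal components, without predicted doublets, and scaled to the median gene). By contrast, Lgmn (legumain, an asparaginyl protease), the most abundant hydrolase, was at 2386 and 2471 CPM (0.05, 0.01 to 0.09). The median of the 11 hydrolases was −0.32 and that of the 16 pump genes −0.11. Summed UMIs showed no such gap, since Lgmn gave 27108 of 54072 hydrolase UMIs after control Ab and 8246 of 14670 after anti-CD9 Ab.

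Cd68, the heavily glycosylated protein of phagocyte lysosomes, was the other call in microglia-like cells. It was at 489 CPM (477 to 502) and 271 (253 to 289), which is 1.81-fold lower (−0.85, −0.96 to −0.75). It was called lower in each of the 4 microglia-like clusters, at −0.75, −0.70, −0.74 and −1.04, of which the third had an interval up to 0.02. Thinned cells with a Cd68 UMI were 35.2% (33.1 to 37.3%) and 23.4% (20.7 to 26.3%), against 1.73% and 0.76% of T cell-like cells, and 62.3% and 46.8% without thinning. The 5 membrane glycoproteins together were at 2998 and 2411 CPM (−0.31), with Lamp1, the main glycoprotein of the lysosomal membrane, at 1035 and 848. The highest ratio of all 38 belonged to Scarb2, the receptor that carries glucocerebrosidase to lysosomes, at 160 and 194 CPM (0.28, 0.14 to 0.41).

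The remaining members of microglia-like cells differed by less than 1.5-fold. Psap, the precursor of the saposins, was at 1510 and 1544 CPM (0.03), and Grn, which codes for progranulin, at 1096 and 885 (−0.31). Npc2, which hands cholesterol to NPC1 for export, was at 1268 and 968 CPM (−0.39). Tfeb was at 64.1 and 54.8 CPM (−0.22, −0.47 to 0.01), and Mcoln1, a calcium channel of the lysosomal membrane, at 16.9 and 14.1 (−0.26, −0.76 to 0.20), so that the interval of each held 0. The 20 members not named here ranged in log2 ratio from −0.45 (Tpp1, a tripeptidyl peptidase) to 0.15 (Atp6v1e1). Beside these values, the 15 microglia markers summed to 18535 CPM after control Ab and 11473 after anti-CD9 Ab, 14 of the 15 being lower, and Cd9 itself was at 4031 and 1699 CPM. The 18 neutrophil markers were at 720 and 1201 CPM and the 14 T cell markers at 298 and 77.0 CPM in the same cells. Their part in the result was not tested.

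Macrophages in the injured brain derive largely from blood monocytes, and in macrophage-like cells the members were lower as a group over the class, though not alike in its sub-clusters. They made up 2.17% of the UMIs after control Ab and 1.26% after anti-CD9 Ab (log2 ratio −0.78, −0.80 to −0.76), and 37 of 38 had a lower CPM after anti-CD9 Ab. Called lower were 21 of 38 and called higher 0, where 15% of all 9785 genes were called lower and 17.5% higher. The median log2 ratio was −0.67 (medians of the bounds −0.83 and −0.47), beside 0.01 over all genes, of which 49.3% were lower. Per cell, the members took a median of 2.15% of the UMIs (quartiles 1.53 and 2.61%) after control Ab and 1.01% (0.68 and 1.38%) after anti-CD9 Ab. These quartiles describe the cells of 1 library each and not replicates. The plot of log2 ratios shows this class shifted to the left, the hydrolases more than the pump.

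**Figure D2:**
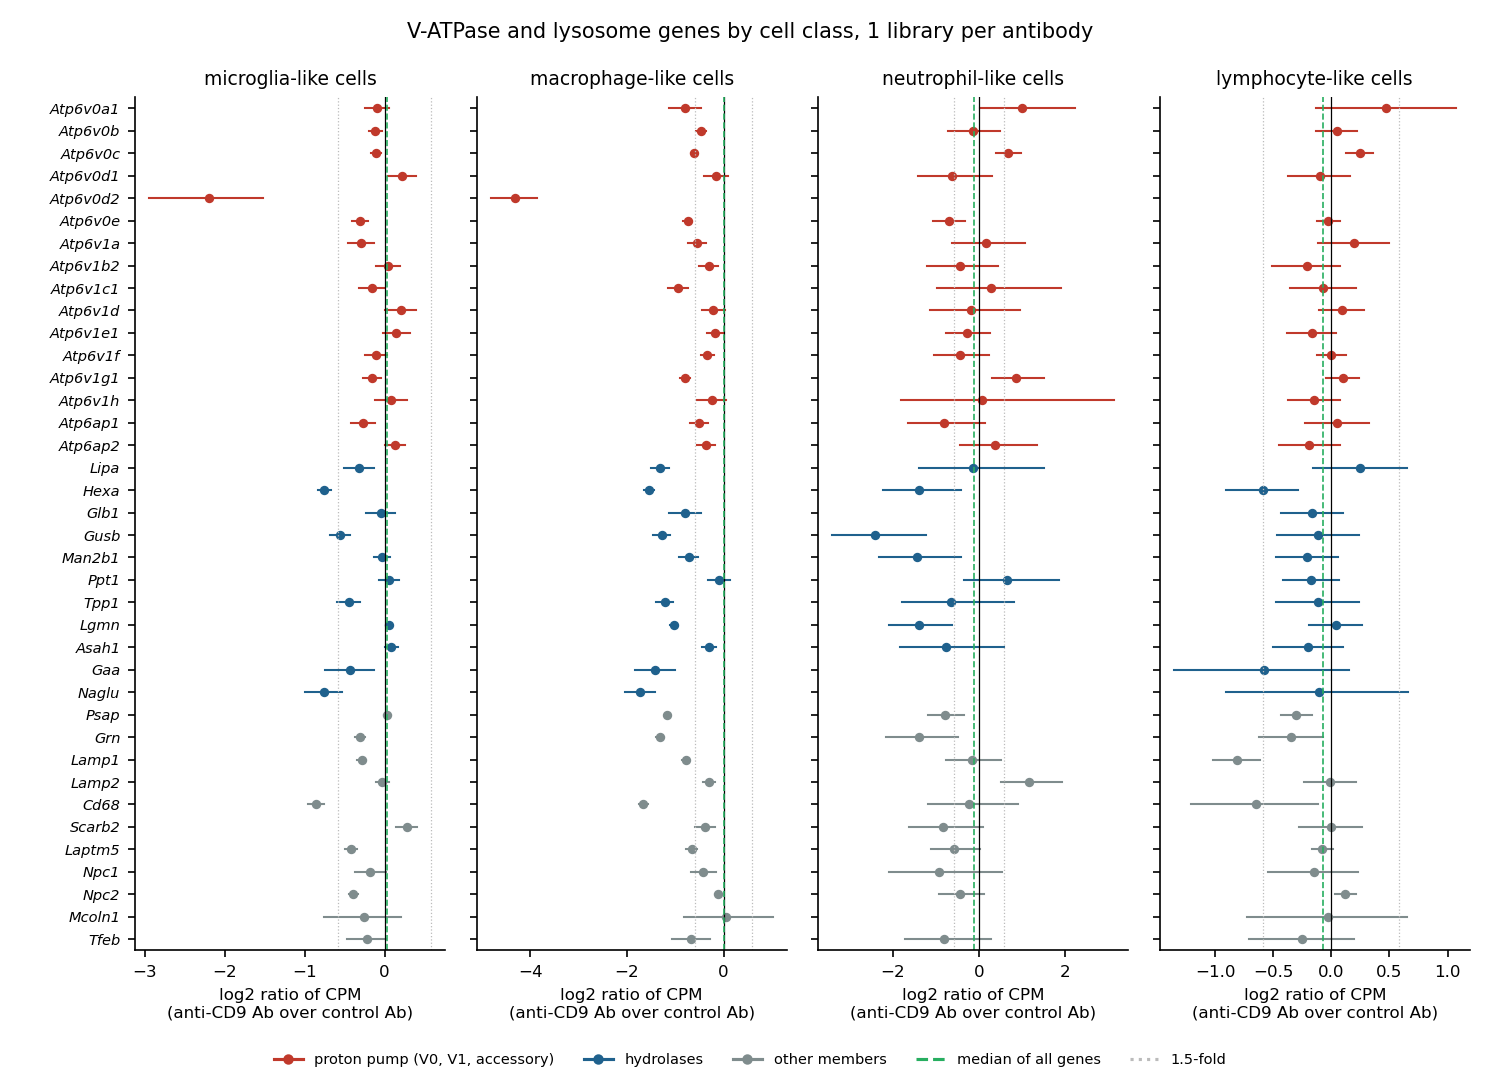
Log2 ratio of CPM (anti-CD9 Ab over control Ab, horizontal axis) of each member with at least 50 UMIs, with 95% counting intervals, in 4 cell classes. Genes are ordered by role, green dashed lines mark the median of all genes of the class, dotted lines mark 1.5-fold, and 37 of 38 points lie left of 0 in macrophage-like cells.

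Within the pump of macrophage-like cells, 6 of 16 genes were called lower, where 15% of all genes were. The summed level of the pump was at 6254 and 4159 CPM (−0.59, −0.62 to −0.56). Atp6v0d2 was again lowest, with 173 UMIs in 236 cells after control Ab (118 CPM, 101 to 137) and 47 in 2457 cells after anti-CD9 Ab (5.87 CPM, 4.31 to 7.81), a 20.1-fold difference (−4.33, −4.82 to −3.85). Its share of thinned cells was 10.5% (6.74 to 15.3%) and 0.31% (0.10 to 0.73%), and 27.1% and 0.90% without thinning. Thinning left out 16 of 236 and 858 of 2457 macrophage-like cells, so that the thinned shares cover unlike parts of the class. Thinned T cell-like cells were at 0.11% (0.00 to 0.60%) after anti-CD9 Ab. The anti-CD9 Ab value of Atp6v0d2 thus again lay within the range of the background, and the fold rests on it. Atp6v0d1 was at 112 and 101 CPM (−0.15, −0.40 to 0.10) in the same cells. Atp6v0c, the most abundant pump gene, was at 2154 and 1402 CPM (−0.62) and Atp6v1g1 at 691 and 397 (−0.80). Atp6v0a1, Atp6v0e and Atp6v1c1 were the other calls, at −0.80, −0.75 and −0.94, while the accessory gene Atp6ap2 was at 194 and 150 CPM (−0.37).

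Of the 11 hydrolases of macrophage-like cells, 9 were called lower, where 15% of all genes were. The sum of the 11 was at 3973 and 1947 CPM (−1.03, −1.07 to −0.99). Naglu was at 96.7 and 29.2 CPM (−1.73, −2.03 to −1.41), Hexa at 788 and 271 (−1.54, −1.64 to −1.43) and Gaa, the acid α-glucosidase that clears glycogen, at 51.1 and 18.99 (−1.43, −1.84 to −1.01). Lgmn was at 1558 and 761 CPM (−1.03, −1.10 to −0.96). Ppt1, which removes palmitate from proteins, was the exception at the top, with 129 and 120 CPM (−0.10, −0.33 to 0.13), and Asah1 (acid ceramidase) was the other hydrolase not called, at 354 and 287 CPM. The median of the hydrolases was −1.22 and that of the pump −0.49.

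Other lysosomal genes of macrophage-like cells were divided by the call. Cd68 was at 927 CPM (879 to 978) and 293 (281 to 305), a log2 ratio of −1.66 (−1.76 to −1.57). Thinned cells with a UMI of it were 54.1% (47.3 to 60.8%) and 23.5% (21.5 to 25.7%), with 16 and 858 cells left out. Without thinning the shares were 84.75% and 40.33%. Psap was at 4413 and 1967 CPM (−1.17), Grn at 1144 and 460 (−1.32) and Lamp1 at 1431 and 830 (−0.79). Npc2, on the other hand, was at 2226 and 2056 CPM (−0.11, −0.17 to −0.06), the level of an abundant member that was nearly the same in both libraries. Mcoln1, with 13 and 73 UMIs, was at 8.85 and 9.12 CPM (0.04, −0.82 to 1.02), the only member above 0, and Tfeb at 48.3 and 30.2 CPM (−0.68, −1.06 to −0.27). The 17 members not named so far ranged from −1.32 (Lipa, the acid lipase) to −0.18 (Atp6v1e1). Of these 17, 6 were called lower (Lipa, Glb1, Gusb, Man2b1, Tpp1 and Laptm5), where 15% of all genes were. Over the same 5 settings, the calls of Atp6v0c, Laptm5 and Tfeb were each lost 1 time and that of Man2b1 2 times, and Atp6v1a was gained 1 time.

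The make-up of the macrophage-like class differed between the libraries. Cluster 1 held 207 of 236 cells after control Ab and 1227 of 2457 after anti-CD9 Ab, and cluster 6 held 29 and 1230. The median cell of the class had 5978 and 2362 UMIs. The microglia markers summed to 6709 CPM after control Ab and 1937 after anti-CD9 Ab in this class, with 15 of 15 lower and none at 0, and Cd9 was at 4042 and 449 CPM. The 18 neutrophil markers were at 824 and 5099 CPM, and predicted doublets made up 17.4% and 19.8% of the cells. Sub-clusters with over 50% predicted doublets held 68 of 236 and 134 of 2457 cells, and 43.6% and 9.99% of the UMIs. Sub-clusters led by Mcpt2 and by Camp held 48 and 27 cells after anti-CD9 Ab and 0 after control Ab. Without those of predicted doublets, 18 of 38 members were called lower and 0 higher, where 13.1% and 24.8% of all genes were called, and the median was −0.58. The part of the markers in the result was not tested. In cluster 1 alone, the median of the members was −0.69 with 20 of 38 called lower and 0 higher, where 17% and 15.3% of all genes were called. In cluster 6, with 33 genes measured, it was −0.32 with 8 called lower and 2 higher, beside 0.24 over all genes, of which 15.5% and 33.3% were called. The name of cluster 6 is uncertain. Its 10 plasma cell markers were at 80042 and 35122 CPM, above the 16 macrophage or monocyte markers at 6818 and 8715, and its 18 neutrophil markers were at 2543 and 11515. Its median cell had 1032 and 776.5 UMIs. At a mitochondrial limit of 5%, a cluster led, as it is, by F13a1 and Saa3 stayed unnamed.

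Macrophage-like sub-cluster 1, led by Fabp5, Gpnmb and Apoe, held the most control Ab cells (118 and 469 cells, medians of 5736 and 5202 UMIs). There, of 37 members with at least 50 UMIs, 33 were lower after anti-CD9 Ab and 15 were called lower and 0 higher, where 9.88% and 25.9% of all genes were called. The median was −0.42 beside 0.19 over all genes. Atp6v0d2 was at 197 CPM after control Ab and 8.45 after anti-CD9 Ab (−4.54, −5.28 to −3.87), and Cd68 at 1173 and 461 (−1.35, −1.48 to −1.22). Hexa was at 937 and 507 CPM (−0.89) and Lgmn at 1451 and 1298 (−0.16, −0.26 to −0.06). By medians, the hydrolases (−0.70, 6 of 11 called lower) lay under the pump (−0.53, 6 of 16), as in the class. The summed ratio was turned the other way, since the pump held 1.85 UMIs per hydrolase UMI (1.76 to 1.94) after control Ab and 1.56 (1.51 to 1.60) after anti-CD9 Ab. Sub-cluster 2 (led by Saa3, 9 and 503 cells) had a median of −0.36 beside 0 over all genes. Sub-cluster 3 (led by Vcan, 17 and 218 cells) was at −0.04 beside 0.06. Sub-clusters 0, 4, 5 and 6 stood at −0.71, −0.35, −0.46 and −0.60, beside 0.33, 0.00, 0.09 and 0.09 over all genes. Sub-cluster 0 was led by Pcdh9 and Magi2 (16 and 833 cells). Sub-cluster 4 was led by Ttr and Ighg2b (8 and 225 cells). Predicted doublets made up 75.57% of sub-cluster 5 (54 and 77 cells) and 100% of sub-cluster 6 (13 and 36 cells). How far the medians of sub-clusters 0, 4, 5 and 6 describe macrophages was not tested. The differences of pump to hydrolases were 0.69 (0.33 to 1.04) in sub-cluster 0, 0.02 (−0.35 to 0.38) in sub-cluster 2 and 0.39 (0.06 to 0.72) in sub-cluster 3. They were −1.13 (−2.39 to 0.13) in sub-cluster 4, 0.28 (0.14 to 0.41) in sub-cluster 5 and 0.23 (−0.02 to 0.49) in sub-cluster 6. The part of the mix of sub-clusters in the class values was not tested.

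The pump was then set against the hydrolases in each class, as the ratio of their summed UMIs, which does not depend on the scaling. In microglia-like cells, the ratio was 0.71 (0.70 to 0.72) after control Ab and 0.71 (0.69 to 0.73) after anti-CD9 Ab, a log2 difference of 0.01 (−0.03 to 0.05). This near-equality rested on Lgmn, since the difference was 0.20 without it, and on the sum over clusters, since it was 0.13 (0.08 to 0.19) in cluster 2, 0.00 (−0.07 to 0.07) in cluster 4, 0.54 (0.34 to 0.75) in cluster 10 and −0.08 (−0.26 to 0.09) in cluster 22. In macrophage-like cells, it was 1.57 (1.52 to 1.63) and 2.14 (2.10 to 2.18), a difference of 0.44 (0.39 to 0.50). Without integration of the libraries this came to 0.15, with a mitochondrial limit of 5% to 0.17, and without the sub-clusters of predicted doublets to 0.21. In neutrophil-like cells, the ratio was 4.51 (3.53 to 5.82) and 9.27 (8.86 to 9.71), a difference of 1.04 (0.68 to 1.39), and 0.66 (0.25 to 1.07) in cluster 3 alone. The difference was 1.44 (0.72 to 2.17) in cluster 5, which held 10 cells after control Ab. In lymphocyte-like cells, it was 3.82 (3.66 to 3.99) and 4.37 (4.12 to 4.63), a difference of 0.19 (0.09 to 0.29). In each library the 4 classes kept the order of microglia-like, macrophage-like, lymphocyte-like and neutrophil-like cells, from low to high. The intervals of neighbours in it overlapped only between lymphocyte-like and neutrophil-like cells after control Ab. A higher ratio after anti-CD9 Ab was not particular to these classes. The difference was 0.84 (0.71 to 0.97) in dendritic cell-like, 0.61 (0.42 to 0.79) in plasma cell-like and 0.77 (0.30 to 1.25) in astrocyte-like cells. It was 0.73 (0.38 to 1.08) in oligodendrocyte-like and 0.31 (−0.01 to 0.64) in neuron-like cells. Unnamed cluster 7, with 3 cells after control Ab, was left out.

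**Figure D3:**
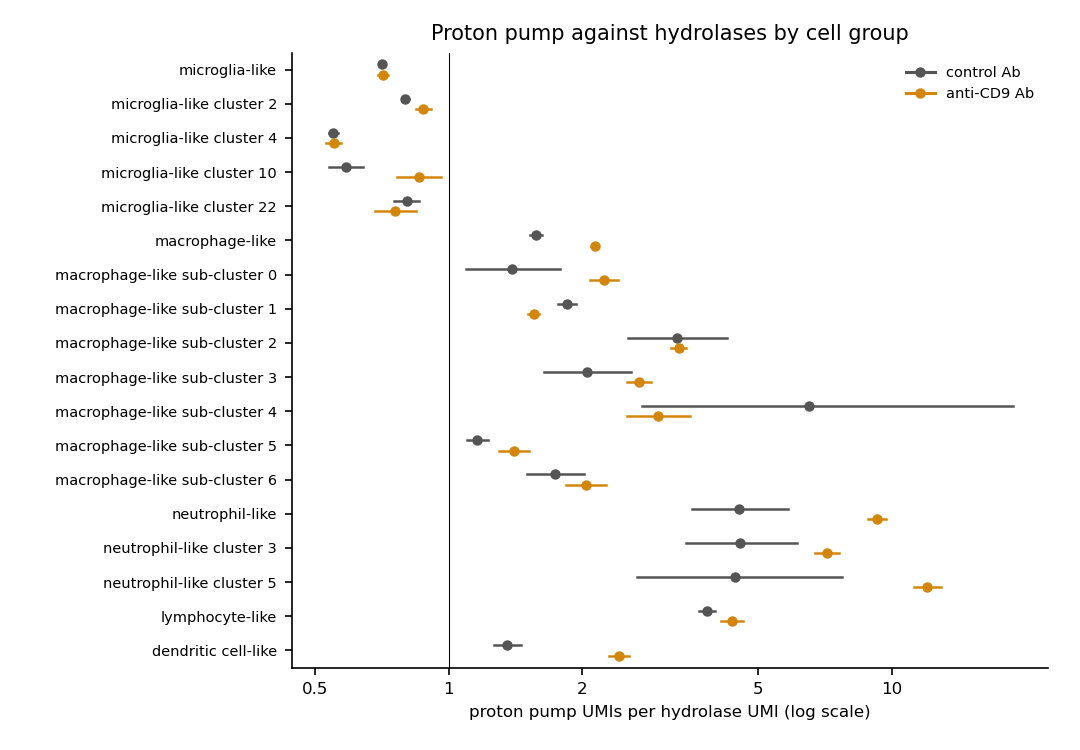
Summed UMIs of 16 pump genes per summed UMI of 11 hydrolase genes (horizontal axis, log scale) by cell group, after control Ab in grey and anti-CD9 Ab in orange. Bars are 95% counting intervals, microglia-like groups lie under 1, and macrophage-like sub-cluster 1 is lower after anti-CD9 Ab (1.85 and 1.56) while the class as a whole is higher (1.57 and 2.14).

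Neutrophils are short-lived granulocytes, and their class held only 63 cells and 70381 UMIs after control Ab against 2597 cells and 3271193 UMIs after anti-CD9 Ab. Its make-up differed as well, since cluster 3 (led by Retnlg and Cxcr2) held 53 and 1313 cells and cluster 5 (led by Cxcl10 and Ccl4) 10 and 1284. Of the 38 members, 33 had at least 50 UMIs, and Atp6v0d2, Glb1, Gaa, Naglu and Mcoln1 did not. The median log2 ratio was −0.43, with medians of the bounds of −1.17 and 0.49, beside −0.11 over all 5403 genes. Called lower were 14 and called higher 5, where 33.2% of all genes were called lower and 21.4% higher, so that neither share stood far from the background. The 14 were Atp6v0d1, Atp6v0e, Atp6ap1, Hexa, Gusb, Man2b1, Tpp1, Lgmn, Asah1, Psap, Grn, Scarb2, Npc1 and Tfeb. The 5 were Atp6v0a1, Atp6v0c, Atp6v1g1, Ppt1 and Lamp2, a membrane glycoprotein needed for fusion with autophagosomes (256 and 576 CPM, 1.17, 0.51 to 1.93). Over the 5 settings, the calls of Atp6v0d1 and Ppt1 were lost 4 times each, that of Asah1 3 times, those of Atp6v0e, Tpp1 and Npc1 2 times, and those of Atp6ap1, Psap and Tfeb 1 time. Psap reached 0.26 and Tpp1 0.13 in them. Laptm5, Atp6v1h and Atp6ap2, which were not called, stayed so under 3, 4 and 4 of the 5 settings. Without integration the median of the members was −0.03, with 6 of 33 called lower and 6 higher, where 30.7% and 19.9% of all genes were called. In cluster 3 alone it was −0.22, with 9 of 32 called lower and 5 higher, where 19.8% and 28.9% of all genes were called. In cluster 5, with 10 cells after control Ab, it was −1.31 (medians of the bounds −2.61 and 1.17) beside 0 over all genes. The medians there were −0.98 for the pump and −2.04 for the hydrolases. Over the class, the hydrolases were at 1137 and 615 CPM (−0.89, −1.21 to −0.54) while the pump was at 5129 and 5707 (0.15, 0.00 to 0.31). Beside this, the 15 microglia markers were at 3069 and 899 CPM in these cells, with 15 of 15 lower, and their part in the result was not tested.

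Against microglia-like cells of the same library, neutrophil-like cells had a larger share of pump UMIs and a smaller share of hydrolase UMIs. These are shares of the class and not amounts per cell, since the median cell had 831 and 1167 UMIs beside 2664 and 2835. With control Ab, the median log2 ratio was 0.40 for the 16 pump genes and −1.65 for the 11 hydrolases, and after anti-CD9 Ab it was 0.31 and −2.84. No median or share over all genes stands beside the comparisons with microglia-like cells, so how far the members differ from other genes is not known. Of the 38 members, 26 were lower and 12 higher than in microglia-like cells after control Ab. The limit of 50 UMIs was applied to both classes together, and after control Ab microglia-like cells held 11361835 UMIs against 70381 in neutrophil-like cells. A member could thus pass through microglia-like cells alone, so no conclusion is drawn from this count or from the control Ab medians. With anti-CD9 Ab, 37 members had at least 50 UMIs over both classes, 24 lower and 13 higher. Atp6v1e1, a stalk subunit of V1, was highest in both libraries, at 497 CPM after control Ab (2.30 over microglia-like cells, 1.77 to 2.78) and 412 after anti-CD9 Ab (1.88, 1.71 to 2.05). With control Ab it was followed by Atp6v0e, a small V0 subunit (923 CPM, 1.38, 1.01 to 1.74), and Tfeb (142 CPM, 1.15, 0.08 to 2.04, from 10 UMIs). With anti-CD9 Ab it was followed by Atp6v0c (2269 CPM, 1.62, 1.56 to 1.69) and Atp6v1g1 (649 CPM, 1.39, 1.27 to 1.51).

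Lgmn was the lowest member of neutrophil-like cells against microglia-like cells in both libraries, with 18 UMIs and 256 CPM after control Ab (−3.22, −3.98 to −2.56) and 318 UMIs and 97.2 CPM after anti-CD9 Ab (−4.67, −4.83 to −4.51). Grn was another of the 3 lowest in both libraries, at −2.46 (−3.33 to −1.72) and −3.53 (−3.73 to −3.35). The others were Naglu, at 1 UMI after control Ab (a ratio of −2.71, −8.01 to −0.23), and Glb1, β-galactosidase, at 14 UMIs after anti-CD9 Ab (−4.55, −5.44 to −3.79). Thinned neutrophil-like cells with an Lgmn UMI were 20% (5.73 to 43.7%) of 20 cells after control Ab and 7.58% (6.39 to 8.92%) of 1767 cells after anti-CD9 Ab. T cell-like cells were at 5.93% (5.03 to 6.93%) and 4.89% (3.59 to 6.48%), so that the neutrophil-like value after anti-CD9 Ab lay little above theirs. Whether the T cell-like share came from free RNA or from Lgmn expression was not tested. Thinning left out 43 and 830 neutrophil-like cells, and the shares without it were 15.9% and 9.70%. The hydrolases of neutrophil-like cells, at 615 CPM after anti-CD9 Ab, stood beside 386 in T cell-like cells. Of the members given in every class, Atp6v0d1 was at 185 and 120 CPM in neutrophil-like cells, Cd68 at 128 and 109, Tfeb at 142 and 81.6, and Atp6v0d2 and Mcoln1 had 1 UMI each after control Ab and 17 and 35 after anti-CD9 Ab.

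**Figure D4:**
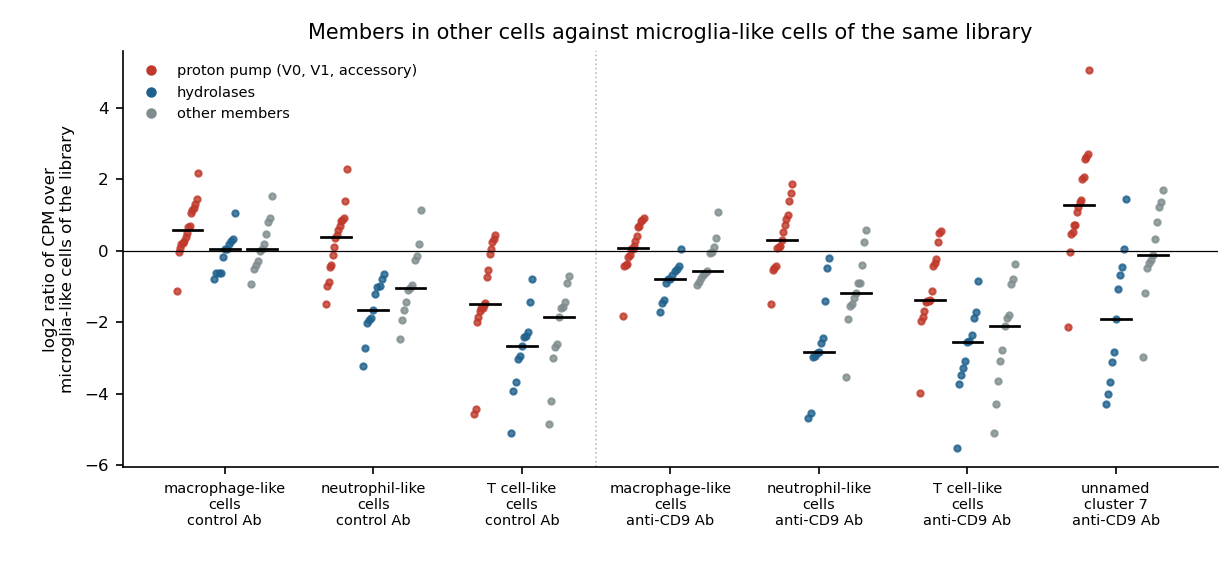
Log2 ratio of CPM in other cells over microglia-like cells of the same library (vertical axis), 1 point per member with at least 50 UMIs in both groups together, by role and library, with black bars at the medians. The median of the pump genes lies above that of the hydrolases in every group shown, at of 0.40 and −1.65 in neutrophil-like cells after control Ab and 0.31 and −2.84 after anti-CD9 Ab.

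The unnamed cluster 7, led by Gdf15 and Hilpda, had the highest pump level after anti-CD9 Ab. It held 3 cells after control Ab and 920 after anti-CD9 Ab, with 3 of 18 neutrophil markers raised as its nearest list, and is described only for anti-CD9 Ab. Its pump genes summed to 10795 CPM against 3131 in microglia-like cells, and its hydrolases to 1109 against 4396. These too are shares and not amounts per cell, since its median cell had 1014 UMIs beside 2835. No values over all genes stand beside them. Atp6v0c was at 4506 CPM (6.12-fold that of microglia-like cells) and Atp6v1e1 at 738 (6.59-fold). Atp6v0d2 had 183 UMIs and was at 189 CPM, 33.2-fold above microglia-like cells of the same library, so that the gene was low in microglia-like and macrophage-like cells (5.69 and 5.87 CPM) but not in the whole library. In thinned cells it was found in 8.23% (5.92 to 11.1%), and in 7.93% without thinning. Tfeb was at 143 CPM (2.60-fold) and Npc1, the cholesterol exporter of the lysosomal membrane, 3.26-fold higher, while Lgmn and Man2b1, an α-mannosidase, were 12.7-fold and 8.59-fold lower. Npc1 and Man2b1 were singled out here after their values were seen.

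Lymphocytes digest little engulfed material, and the members took 0.39% of the UMIs of lymphocyte-like cells after control Ab and 0.37% after anti-CD9 Ab (log2 ratio −0.05, −0.08 to −0.02). Of 37 members with at least 50 UMIs (Atp6v0d2 had 10 and 13), 26 were lower and 11 higher. The median was −0.11 (medians of the bounds −0.38 and 0.20) beside −0.07 over all 10224 genes, of which 58.6% were lower. Called lower were 3 and called higher 0, where 8.87% and 8.02% of all genes were called. The class joined 2821 and 996 T cell-like, 402 and 165 NK cell-like and 32 and 99 B cell-like cells, so that its make-up differed between the libraries. In T cell-like cells alone the median was −0.14, with 4 of 36 called lower and 0 higher, where 10.2% and 6.88% of all genes were called. Their difference of pump to hydrolases was 0.25 (0.14 to 0.37). The pump was at 1804 and 1842 CPM (0.03, −0.02 to 0.08) and the hydrolases at 472 and 422 (−0.16, −0.25 to −0.07).

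The 3 calls of lymphocyte-like cells were Lamp1, Cd68 and Hexa. Lamp1 was at 139 CPM (129 to 148) after control Ab and 78.8 (69.6 to 88.8) after anti-CD9 Ab (−0.81, −1.02 to −0.61), Cd68 at 18.5 and 11.8 (−0.65, −1.21 to −0.12) and Hexa at 54.2 and 36.0 (−0.59, −0.90 to −0.29). In the same cells the 15 microglia markers was at 1112 and 643 CPM, with 15 of 15 lower, and their part in the result was not tested. The calls of Hexa and Cd68 were lost under 4 and 3 of the 5 settings, and that of Lamp1 under 1. Atp6v0a1, Gaa and Grn, which were not called, stayed so under only 2, 3 and 4 of the 5 settings, and Atp6v0a1 reached 0.86. At the other end stood Atp6v0a1, a V0 subunit that anchors the pump (9.35 and 12.99 CPM, 0.47, −0.13 to 1.07), Lipa (21.6 and 25.7 CPM, 0.25, −0.16 to 0.65), and Atp6v0c (257 and 304 CPM, 0.25, 0.13 to 0.36). Laptm5, a lysosomal membrane protein of blood cells, was the most abundant member at 491 and 465 CPM, followed by Npc2 at 454 and 493 and Atp6v0e at 402 and 395. Atp6v0d1 was at 58.0 and 54.0 CPM, Lgmn at 72.3 and 74.1, Tfeb at 22.1 and 18.6 and Mcoln1 at 9.01 and 8.85. The plot of shares by role shows how little of the lymphocyte-like total the members took.

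**Figure D5:**
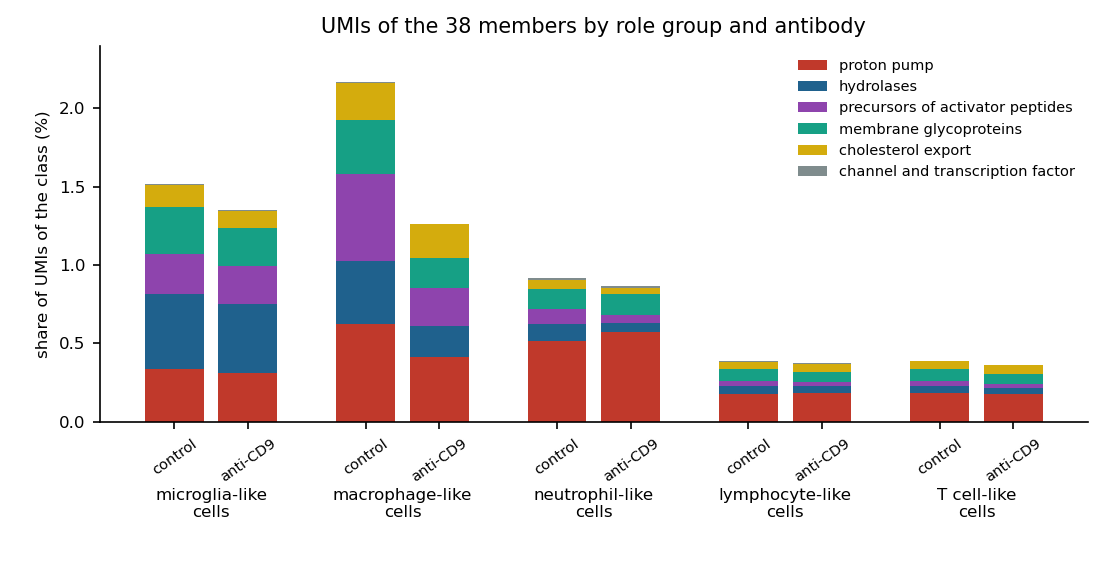
Share of the UMIs of each class taken by the members (vertical axis, %), stacked by role group, after control Ab and anti-CD9 Ab side by side for each class. The total is 2.17% and 1.26% in macrophage-like cells and 0.39% and 0.37% in lymphocyte-like cells.

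Members with CACGTG in the promoter were set beside those without it, as a description. In microglia-like cells, the 10 with it had a median log2 ratio of −0.28 (range −0.76 to 0.22) and the 21 without it −0.11 (−0.85 to 0.28). In macrophage-like cells, the medians were −0.77 (−1.73 to 0.04) and −0.66 (−1.66 to −0.10), with 6 of 10 and 12 of 21 called lower. Of all genes in that class, 15% were called lower. In neutrophil-like cells, the medians were −0.39 for 6 members with it and −0.44 for 21 without it. In lymphocyte-like cells, they were −0.06 for 10 and −0.11 for 21. The members with it were thus the lower ones in the first 2 classes and the higher ones in the other 2. The ranges overlapped in each of the 4 classes. Mcoln1, with 2 copies, was the member above 0 in macrophage-like cells, and Naglu, with 1 copy, had the second lowest ratio.

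Other genes of the pathway were counted from 5 lists. Of all genes, 9.72% were called lower and 9.47% higher in microglia-like cells, and 15% and 17.5% in macrophage-like cells. The shares were 33.2% and 21.4% in neutrophil-like cells and 8.87% and 8.02% in lymphocyte-like cells. In microglia-like cells, of 9 other V-ATPase genes with at least 50 UMIs 0 were called, and of 16 genes of sorting to the lysosome 0 were called. Of 27 other hydrolases, 4 were called lower and 1 higher (median −0.14), of 21 other membrane proteins 1 lower and 1 higher (−0.05), and of 15 genes of the lysosomal transcription factors and mTORC1 1 lower and 0 higher (−0.13). The lowest were Arsb, arylsulfatase B, at 314 and 148 CPM (−1.08, −1.22 to −0.95), and Rragd, a Rag GTPase, at 6.51 and 3.297 (−0.98, −2.05 to −0.06). The highest were Naaa, the acid amidase of N-acylethanolamines, at 40.5 and 105 CPM (1.37, 1.17 to 1.58), and Clcn7, a chloride-proton exchanger of lysosomes, at 32.4 and 51.0 (0.65, 0.38 to 0.92). In macrophage-like cells, the other V-ATPase genes had 1 of 8 called lower (median 0.09), and the other hydrolases 13 of 28 lower and 2 higher (−0.55). The membrane proteins had 7 of 21 lower (−0.17), the transcription factors and mTORC1 4 of 15 lower and 1 higher (−0.29), and the sorting genes 3 of 16 lower and 1 higher (−0.33). In neutrophil-like cells, the calls lower and higher were 0 and 1 of 4 other V-ATPase genes, 6 and 1 of 16 hydrolases, 1 and 2 of 10 membrane proteins, 3 and 1 of 12 transcription factors and mTORC1 genes, and 0 and 1 of 10 sorting genes. In lymphocyte-like cells, they were 0 and 0 of 7, 2 and 3 of 25, 2 and 4 of 21, 0 and 2 of 14, and 0 and 0 of 15.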

How the data were processed

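The authors deposited raw UMI counts per gene and cell barcode for 2 libraries of thalamic CD45+ cells (3′ protocol v3.1), with 38042608 UMIs over 12245 barcodes for control Ab and 40825201 over 15173 for anti-CD9 Ab. Counts came from Cell Ranger 8.0.0 and GRCm39 per the labels, whereas the methods name another version and build. The RefSeq promoter table is of GRCm38.p6. Cells with 200 to 7500 genes and no more than 2% mitochondrial counts were kept. They were integrated by anchors (30 dimensions, 2000 variable genes) and clustered at resolution 0.8 with Seurat 5.3.0 in R 4.3.3. A cluster took the name of a cell type where at least 50% of its markers were raised by at least 1 on the log2 scale, and clusters with over 50% predicted doublets stayed unnamed. Predicted doublets (0.8% per 1000 barcodes, 10.6% and 12.4% of kept cells) were otherwise kept. Counts were summed per class and library in Python 3.11.15 and divided by the class total. Intervals are exact Poisson for levels, conditional binomial for ratios, and Clopper-Pearson for shares, and they come from UMIs of 1 library each. The bounds beside a median log2 ratio are the medians of the members' bounds. For shares of cells with a UMI, cells were thinned to 1000 UMIs.

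The members, the lists and the rule for named genes were chosen with earlier results of these data known. The rule named the 5 lowest and 3 highest ratios in microglia-like and macrophage-like cells, the 3 lowest and 3 highest in lymphocyte-like cells, and the 3 highest and 3 lowest of neutrophil-like against microglia-like cells. It added the most abundant member of each role group and Atp6v0d1, Atp6v0d2, Cd68, Tfeb and Mcoln1 in every class, and 2 lowest and 2 highest of the other lists. Of the gene symbols, 26 occur more than once, none of them a member. No column of values lacked a sample. The ratios and their intervals were tested on simulated Poisson counts, and the other steps were not tested in this way. Alternatives were other clusterings, cells, scalings, minima and summaries, and single clusters or the class without sub-clusters of predicted doublets, the last 2 chosen after seeing the data.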

Additional observations from a re-analysis of the deposited data

How the results depend on the processing

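The 8 values that answer the comparisons (the median log2 ratio and the difference of pump to hydrolases in 4 classes) were recomputed 62 times under other settings, of which 8 moved a value by more than its counting interval. In microglia-like cells, the difference of pump to hydrolases was 0.01, and it came to 0.13 as a mean over cells, 0.15 with clusters weighted equally and 0.20 without Lgmn. In macrophage-like cells, the difference of 0.44 came to 0.15 without integration (159 and 2121 cells), 0.17 at a mitochondrial limit of 5%, 0.36 without predicted doublets and 0.59 with clusters weighted equally, and the median of −0.67 to −0.40 with clusters weighted equally. Of 10 values from alternatives added after seeing the data, 4 moved. Without sub-clusters of predicted doublets, the difference in macrophage-like cells came to 0.21. Sub-cluster 1 of macrophage-like cells alone gave a median of −0.42 and turned the difference of pump to hydrolases to −0.25. Cluster 3 of neutrophil-like cells alone gave a difference of 0.66 in place of 1.04. The causes were not tested. No paired analysis was possible because each antibody had 1 library, and no library could be left out. The median of neutrophil-like cells came to −0.03 without integration, within its wide bounds. Clusters weighted equally gave no value in neutrophil-like cells, where 1 cluster had at least 20 cells in both libraries. Depth limits the 63 neutrophil-like cells with control Ab most, where 5 members stayed under 50 UMIs.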
